A study of Bos taurus with 15 samples.

Results

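The genes described here mark regulatory T cells, and they were read in the thymus of Holstein cows that had been given prednisolone or nothing. The set has 10 named genes: FOXP3 and IKZF2, IL2RA, CTLA4, ICOS, TNFRSF4, TNFRSF18, TNFRSF9, CCR4 and CCR8. A probe was taken when the array's own gene name was one of these symbols or when its description gave the symbol in brackets. This found 7 probes for 7 of the 10 genes, among 21475 bovine probes on the array. For TNFRSF4 and TNFRSF18 no probe was found by this rule. IKZF2 was found only under its older symbol, ZNFN1A2, so it lies outside the rule and its values are given apart.

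Thymus had been collected at slaughter from 15 cows, 1 array for each cow. The 7 control cows were untreated. The 8 treated cows were dosed with the synthetic glucocorticoid prednisolone by mouth, 30 mg per head each day over 35 days. The labels give the breed and the tissue and no age, and each level is that of whole tissue, so that fewer cells of a type and less RNA per cell cannot be told apart.

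Regulatory T cells are CD4+ T cells that restrain other T cells, and part of them arises in the thymus from developing T cells that recognise the body's own peptides. FOXP3 is the transcription factor that defines them. IL2RA (CD25) is the chain that gives the interleukin 2 receptor its high affinity, and they depend on the signal of that receptor. Their other surface receptors fall into the CD28 family (CTLA4, ICOS), the tumour necrosis factor receptor family (TNFRSF4, TNFRSF18, TNFRSF9) and the chemokine receptors (CCR4, CCR8). Most of these genes are also switched on in conventional T cells after activation, and CCR4 in maturing thymocytes, so a level in whole thymus is not that of regulatory T cells alone.

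A level is given below as the log2 of the scanner's processed signal minus the 75th percentile of that array, so that 0 is the signal of a fairly bright probe and 1 unit is a doubling. Levels of different genes come from different probes and were not compared with each other. A probe counted as above background on an array when the scanner software marked at least 1 of its spots as well above background, and probes so marked on at least 7 of 15 arrays were tested. Of the 7 genes found by the rule, 4 passed this filter: IL2RA, TNFRSF9, CCR4 and CCR8. FOXP3, CTLA4 and ICOS did not pass it and have levels close to background, so their main description is by level.

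The arrays lay on 4 slides, and many probes differed between slides. Controls 1, 2 and 5 shared a slide with prednisolone animal 6 (slide 1), control 3 with prednisolone animals 3, 5 and 8 (slide 2), and controls 4, 6 and 7 with prednisolone animal 1 (slide 3). Slide 4 carried prednisolone animals 2, 4 and 7 and no control. It stood apart: the signal of its negative-control spots had medians of 1.97 to 2.27, against 3.54 to 7.67 on the other 12 arrays, and 840 to 1050 of its spots were marked as outliers, against 5 to 17 elsewhere. The scanner marked 67.1% to 77.7% of an array's spots as well above background, and precision is limited by how many arrays there are. Markers of T cells, immature thymocytes and thymic epithelium were also read. Of 9, 8 and 8 listed, 7, 6 and 7 passed the filter, all of them above background on all 15 arrays. So were 13628 of the 16067 tested probes, and the 3 thyroid and 2 skeletal muscle markers measured, so this does not identify the tissue. Mean levels of the markers in controls ran from -0.12 to 6.19 for T cells and from -2.19 to 6.58 for immature thymocytes. For thymic epithelium they ran from -4.91 to 6.30, from FOXN1, the transcription factor of thymic epithelium, to PRSS16, a protease of it.

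**Figure D1:**
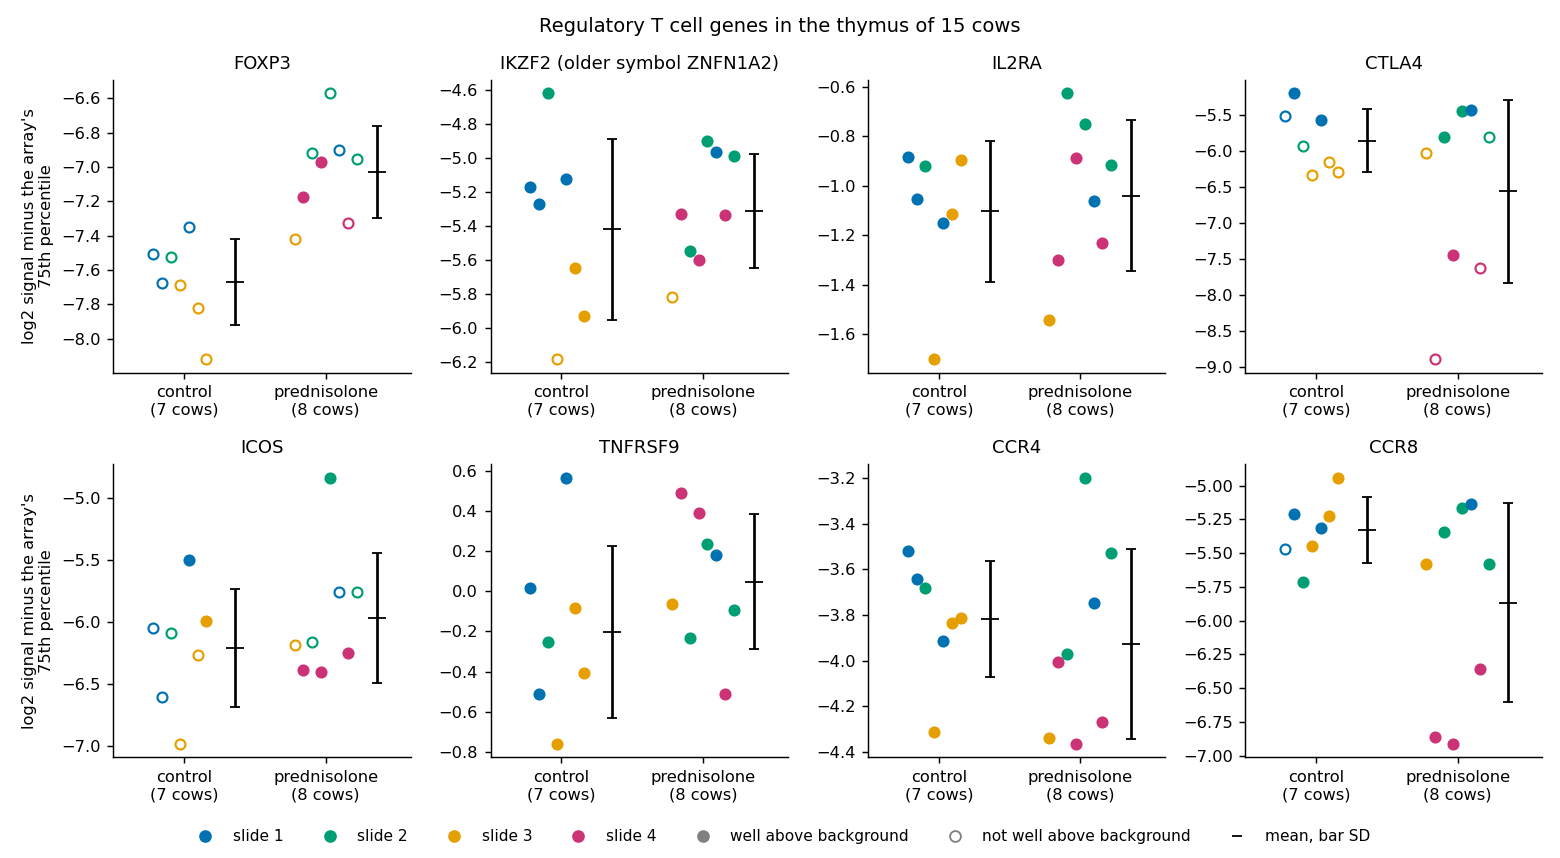
Level of each gene in every cow (vertical axis, log2 of the processed signal minus the 75th percentile of the array) by group, coloured by slide. Filled points were well above background, open points were not, and the bars give the group's mean and SD. CCR8 and CTLA4 have their lowest points on slide 4, and FOXP3 is mostly open.

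The first question was whether prednisolone went with a difference in the measured genes. None of the 4 tested genes passed the test (limma, adjusted p under 0.05), and none of the 16067 tested probes did, which is 0% of them. At an unadjusted p under 0.05 there were 1138 probes, or 7.08%, with 0 of the 4 genes among them. The median log2 difference over the 4 genes, prednisolone minus control, was -0.023, beside -0.00044 over all tested probes. Those 4 passed a filter on brightness and do not stand for the whole set.

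IL2RA (probe A_73_109472) was above background on all 15 arrays. In controls 1 to 7 its level was -0.88, -1.05, -0.92, -1.70, -1.15, -1.11 and -0.90, with a mean of -1.10 ± 0.29 (SD, n = 7). In prednisolone animals 1 to 8 it was -1.54, -1.30, -0.62, -0.89, -0.75, -1.06, -1.23 and -0.92, with a mean of -1.04 ± 0.31 (SD, n = 8). The groups overlapped over most of their range. The lowest value of each group lay on slide 3, in control 4 and in prednisolone animal 1. The log2 difference was 0.064 ± 0.15 SE, with a 95% confidence interval from -0.25 to 0.38 (limma adjusted p = 0.956). With slide as a block its sign turned, to -0.060 (limma adjusted p = 0.938). Within slides 1, 2 and 3 it was -0.031, 0.16 and -0.31, each with a single animal on 1 side, so the slides did not share a sign.

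TNFRSF9 (probe A_73_112550), also called 4-1BB, is a costimulatory receptor that appears on activated and regulatory T cells. It was above background on all 15 arrays. Its level in controls 1 to 7 was 0.01, -0.51, -0.25, -0.76, 0.57, -0.08 and -0.41 (mean -0.20 ± 0.43 SD, n = 7). In prednisolone animals 1 to 8 it was -0.07, 0.49, -0.23, 0.39, 0.24, 0.18, -0.51 and -0.09 (mean 0.05 ± 0.34 SD, n = 8). The highest of all 15 was control 5 and the lowest control 4, so the controls spanned the whole range of the treated cows. The log2 difference of 0.25 ± 0.19 SE (interval -0.15 to 0.65, limma adjusted p = 0.815) was smaller than the spread within either group. Fitted with slide as a block it was 0.24, and 0.21 when slide 4 was left out. Within slides 1, 2 and 3 it was 0.16, 0.22 and 0.35. Without control 5 it was 0.38, with an unadjusted p of 0.035 (limma adjusted p = 0.724), and 0.16 without control 4.

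CCR4 (probe A_73_110464) is a receptor for the chemokines CCL17 and CCL22, which draw regulatory T cells and maturing thymocytes. It was above background on every array. Its level in controls 1 to 7 was -3.52, -3.64, -3.68, -4.31, -3.91, -3.84 and -3.81 (mean -3.82 ± 0.26 SD, n = 7). In prednisolone animals 1 to 8 it was -4.34, -4.00, -3.97, -4.37, -3.20, -3.75, -4.27 and -3.53 (mean -3.93 ± 0.42 SD, n = 8). The treated cows held both the highest value, in animal 5, and the lowest, in animal 4. The log2 difference was -0.11 ± 0.17 SE (interval -0.48 to 0.26, limma adjusted p = 0.929). It was 0.061 without slide 4, but -0.097 with slide as a fixed block and -0.11 with slide as a random block. Within slides 1, 2 and 3 it was -0.054, 0.12 and -0.35, so the sign was not settled. Without prednisolone animal 5 it was -0.21, and -0.048 without animal 4.

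CCR8 (probe A_73_116896), a chemokine receptor found on regulatory T cells of tissues and on maturing thymocytes, was above background in 6 of 7 controls and 8 of 8 treated cows. Its level in controls 1 to 7 was -5.47, -5.21, -5.71, -5.45, -5.31, -5.22 and -4.94 (mean -5.33 ± 0.24 SD, n = 7). In the treated animals 1, 3, 5, 6 and 8 it was -5.58, -5.34, -5.16, -5.13 and -5.58, within the range of the controls. In animals 2, 4 and 7, the 3 cows on slide 4, it was -6.86, -6.91 and -6.36, below every other array. Of all tested probes with a value on every array, 9.84% had their 3 lowest arrays on slide 4 in this way. The log2 difference over all cows was -0.54 ± 0.27 SE (interval -1.12 to 0.05, limma adjusted p = 0.715). Without slide 4 it was -0.029 (interval -0.32 to 0.26), and with slide as a block 0.058. Slides 1, 2 and 3 taken singly gave 0.20, 0.35 and -0.37.

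Measured against the background of its own array, CCR8 on slide 4, as the mean of its 2 spots, lay inside the range of the other slides. Its signal there was 5.08 to 8.10 times the median of the negative-control spots, inside the 4.16 to 10.1 times of slides 1 to 3. From the median of the probes that were never above background it stood at 2.23 to 2.89 on the log2 scale, inside the 2.02 to 3.27 of slides 1 to 3. Among all bovine probes of its array, however, CCR8 stood at percentiles 23.4 to 27.6 on slide 4 and 27.2 to 38.3 on slides 1 to 3. The 2 spots did not read alike, as given below, so their mean does not stand for either spot.

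**Figure D2:**
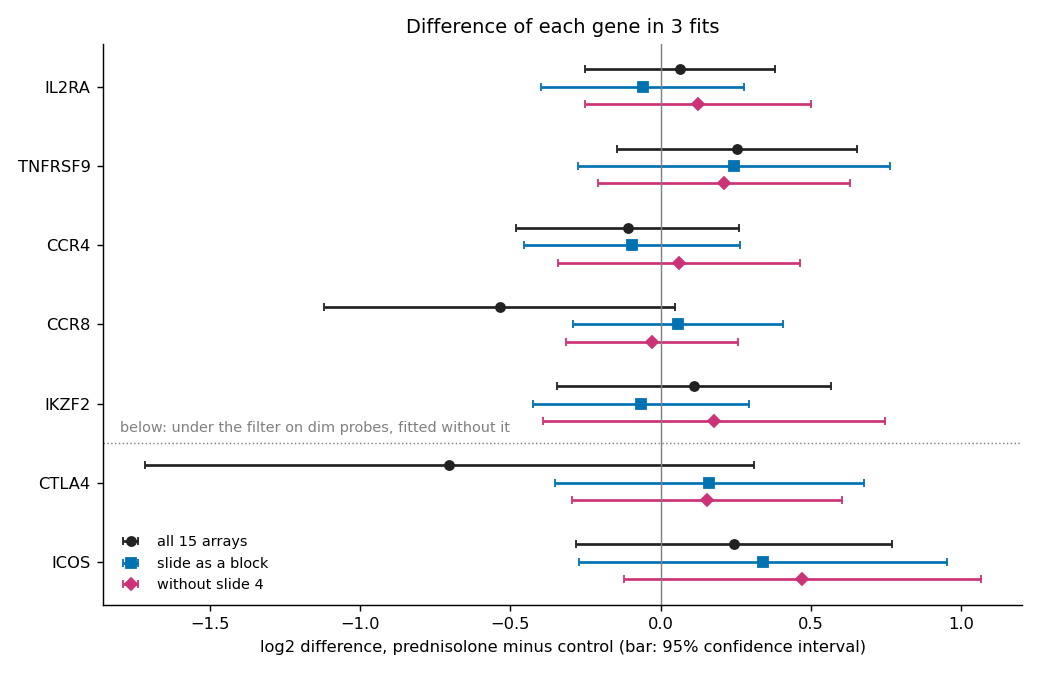
Log2 difference of each gene, prednisolone minus control (horizontal axis), with its 95% confidence interval from limma, over all 15 arrays, with a block for slide, and without slide 4. The points of CCR8 (-0.54, 0.058 and -0.029) and CTLA4 (-0.70, 0.16 and 0.15) move to near 0 or across it when slide is taken into account, while those of TNFRSF9 lie between 0.21 and 0.25. FOXP3 is left out, since no control array was above background.

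IKZF2 encodes Helios, a transcription factor of the Ikaros family that many regulatory T cells of thymic origin express. Its probe (A_73_100360, under the older symbol) was above background in 6 of 7 controls and 7 of 8 treated cows. The lowest, median and highest levels were -6.19, -5.27 and -4.62 in controls and -5.82, -5.33 and -4.90 in treated cows, with the treated range inside that of the controls. The log2 difference was 0.11 ± 0.21 SE (interval -0.35 to 0.57, limma adjusted p = 0.946) and -0.066 with slide as a block. It was 0.22, -0.53 and 0.10 within slides 1, 2 and 3.

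FOXP3 (probe A_73_110589) was read at signals near the scanner's background. It was marked as above background on 0 of 7 control and 2 of 8 treated arrays, both of the latter on slide 4. Its level in controls 1 to 7 was -7.51, -7.68, -7.53, -7.69, -7.35, -7.82 and -8.12 (mean -7.67 ± 0.25 SD, n = 7). In prednisolone animals 1 to 8 it was -7.42, -7.17, -6.92, -6.97, -6.57, -6.90, -7.33 and -6.95 (mean -7.03 ± 0.27 SD, n = 8). Only control 5 and prednisolone animal 1 overlapped. Each level is the mean of 2 spots, and by single spots the groups overlapped more. The first spot ran from -8.06 to -7.39 in controls and from -7.69 to -6.33 in treated cows. The second ran from -8.18 to -7.08 and from -7.70 to -6.41, and both marks above background were on it. Since no control array was above background, the control level is only a bound, and a bound on the fold came out under 1. No difference, error or p is therefore given for FOXP3, and its levels are a description.

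In the controls the FOXP3 signal lay between 1.01 and 1.30 times the median of the array's negative-control spots. In the treated cows it lay between 1.35 and 2.77 times that median on slides 1 to 3, and between 4.14 and 4.87 times on slide 4, where the negative controls were dimmer. Among all bovine probes of its array FOXP3 stood at percentiles 8.19 to 13.1 in the controls and 15.1 to 22.95 in the treated cows, the 5 of slides 1 to 3 being at 15.1 to 18.1. The percentile was read after the levels of FOXP3 had been seen, and it gives no independent support to them. How many other probes, dim ones above all, keep the groups apart in this way was not counted. The separation is therefore not read as a result about FOXP3.

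The limma fit over all 21475 probes, with no filter on brightness, called 0% of them, and 8.05% had an unadjusted p under 0.05. None of the 7 genes found by the rule was called in it, and 1 of the 7 had an unadjusted p under 0.05. Within slides the mean FOXP3 levels of controls and treated cows were -7.51 and -6.90 on slide 1, -7.53 and -6.81 on slide 2, and -7.88 and -7.42 on slide 3, each with a single animal on 1 side. Probes that were never above background had a median difference of -0.44 over all cows and 0.057 without slide 4. Probes above background on 1 to 6 arrays, the class of FOXP3, had one of -0.13 and of 0.13 without slide 4. Dim probes as a class were thus lower on that slide. FOXP3 on slide 4 had a mean level of -7.16, above the controls and below the other treated cows (-6.95).

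The order of the FOXP3 means depended on how background was removed. With normexp, which models the local background again from the raw spot means, the mean level was -3.26 in controls and -4.13 in treated cows, the reverse order. With normexp after 12 spots of high local background had been left out, the means were -3.98 and -4.18. Both settings added an offset of 50, larger than any FOXP3 signal, so they do not tell the direction of FOXP3. The median log2 difference of all tested probes was -0.21 in the first of these settings and -0.061 in the second. In the first, IKZF2, CTLA4, ICOS, CCR4 and CCR8 had differences of -0.72, -0.91, -0.74, -0.58 and -0.92. Those of the brighter IL2RA and TNFRSF9 were 0.025 and 0.14. In the authors' deposited values the mean log2 value of FOXP3 was 2.38 in controls and 3.54 in treated cows, with a value present for 6 of 7 controls and 8 of 8 treated cows. The signal of the first spot ranged from 3.83 to 8.04 in controls and from 6.91 to 18.8 in treated cows, and that of the second from 4.29 to 11.1 and from 5.53 to 21.

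**Figure D3:**
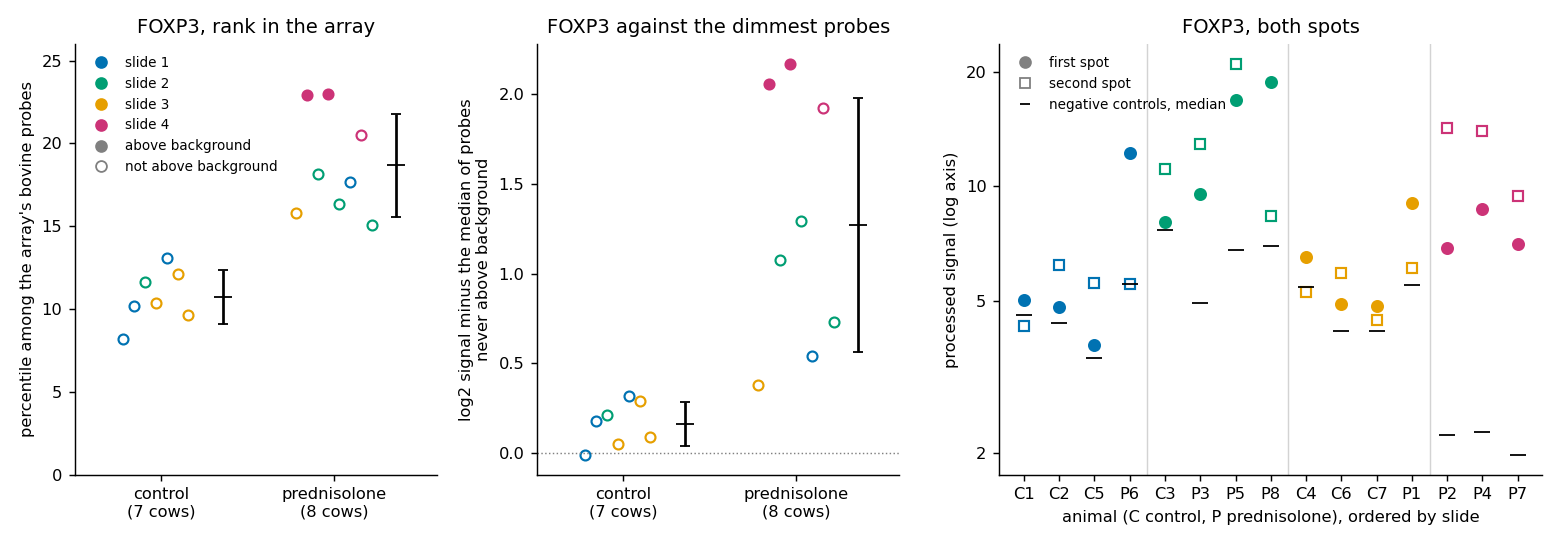
FOXP3 in every cow, coloured by slide. Left, its percentile among the bovine probes of the array; middle, its log2 signal minus the median of probes that were never above background; right, the processed signal of both spots (log axis) with the median of the negative controls. Controls lie at percentiles 8.19 to 13.1 and treated cows at 15.1 to 22.95, and control signals sit close to the negative controls. How many other dim probes keep the groups apart was not counted.

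Markers of 13 cell types were read beside these genes, and no marker passed the test. Differences below are the median log2 difference over a list's measured markers. Of the lists of T lineage cells, all 7 T cell markers had a positive difference, at a median of 0.085 over all cows and 0.097 without slide 4, where 6 were positive. Their mean level ran from 3.56 to 3.78 in controls and from 3.75 to 3.90 in treated cows. Mature T cell markers went the other way, 4 of 6 negative, at a median of -0.12 and of -0.014 without slide 4. Activated T cell markers, 4 of 5 positive, had a median of 0.19 and of 0.17 without slide 4, and immature thymocyte markers, 4 of 6 positive, of 0.029 and 0.038.

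Of 5 B cell markers, 4 had a positive difference, at a median of 0.26 over all cows and 0.18 without slide 4. All 6 macrophage markers had a negative difference, at a median of -0.23, but without slide 4 it was -0.0020 and 3 were positive. The mean macrophage level was -0.68 to -0.49 on slide 4, against -0.49 to 0.13 in the other treated cows and -0.55 to 0.28 in controls. The 2 measured adipocyte markers had a median of 0.36, of 0.88 with slide as a block and of 0.96 without slide 4. The 2 measured skeletal muscle markers had a median of 0.50, which turned to -0.37 with slide as a block and to -0.15 without slide 4. In the other lists the medians were 0.0022 for thymic epithelium, 0.031 for dendritic cells, -0.023 for endothelium, -0.10 for natural killer and cytotoxic cells and -0.039 for thyroid. The part of these cells in the levels of FOXP3 and the other genes was not tested.

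CTLA4 (probe A_73_104324), the receptor by which regulatory T cells bind CD80 and CD86 and so withhold them from CD28, was above background in 2 of 7 controls and 4 of 8 treated cows. Its level in controls 1 to 7 was -5.51, -5.19, -5.93, -6.33, -5.56, -6.15 and -6.29 (mean -5.85 ± 0.44 SD, n = 7). In treated animals 1, 3, 5, 6 and 8 it was -6.02, -5.80, -5.44, -5.42 and -5.81, inside the control range, and in animals 2, 4 and 7 on slide 4 it was -8.89, -7.44 and -7.62. The log2 difference was -0.70 over all cows, 0.15 without slide 4 and 0.16 with slide as a block, and the fits without the filter did not call it (limma adjusted p = 0.636, 0.901 and 0.892). The values within slides 1, 2 and 3 were -0.0024, 0.25 and 0.24. Slide 4 held the 3 lowest arrays for 52.3% of the probes that were above background on fewer than 7 arrays. Measured from the median of the never-detected probes of its own array, CTLA4 stood at 1.41 to 2.66 on slides 1 to 3 and at 0.34, 1.70 and 1.63 in animals 2, 4 and 7.

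ICOS (probe A_73_109063), a costimulatory receptor of the same family, was above background in 2 of 7 controls and 4 of 8 treated cows, 3 of the latter on slide 4. The lowest, median and highest levels were -6.98, -6.09 and -5.50 in controls and -6.40, -6.18 and -4.83 in treated cows, so the groups overlapped. The log2 difference was 0.24 over all cows and 0.47 without slide 4 (limma without the filter, adjusted p = 0.765 and 0.689). Its first spot gave 0.54 and its second -0.049, so the 2 spots did not share a direction. Within slides 1, 2 and 3 the difference of the probe was 0.29, 0.50 and 0.22. With normexp and its offset of 50 it was -0.74, and -0.12 after the 12 spots of high local background had been left out.

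The second question was whether these genes differed between slides. Each slide carried other cows, so slide and animal cannot be told apart. With treatment in the model, 30.6% of 16051 tested probes differed between slides (limma F test, adjusted p under 0.05). Of the 4 tested genes CCR8 did (adjusted p = 0.000711), and IL2RA, CCR4 and TNFRSF9 did not (adjusted p = 0.131, 0.0557 and 0.591). IKZF2 differed as well (limma adjusted p = 0.00825), with mean levels of -5.13 on slide 1 and -5.90 on slide 3. After quantile normalization IKZF2 was not called (limma F test, adjusted p = 0.0619). Without the filter 39.8% of the probes differed between slides, and 3 of the 7 genes found by the rule. These were CCR8, CTLA4 (limma adjusted p = 0.000104) and FOXP3, the last at levels close to background. ICOS (limma adjusted p = 0.234) was not among them.

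The 2 spots of the CCR8 probe did not read alike. On slides 1 to 3 the first spot was the brighter on 12 of 12 arrays, on average 2.97 times, with signals of 24.6 to 79.8 against 10.1 to 31.3. On slide 4 their signals were 10.8 and 14 in animal 2, 8.87 and 15.0 in animal 4, and 17.7 and 14.4 in animal 7. The first spot was above background on 11 of 12 arrays of slides 1 to 3 and on 1 of 3 of slide 4. For the second spot this was 0 of 12 and 3 of 3, so the marks above background rested mostly on different spots. Of 16058 tested probes with 2 spots, 1.90% had a mean difference between spots at least as large on slides 1 to 3, where the median size was 0.087 on the log2 scale. The log2 difference between treatments was -0.96 by the first spot and -0.11 by the second (limma over single spots, adjusted p = 0.587 and 0.885). Between slides the first spot was called and the second was not (limma adjusted p = 0.000155 and 0.216), beside 35.8% of all single spots.

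**Figure D4:**
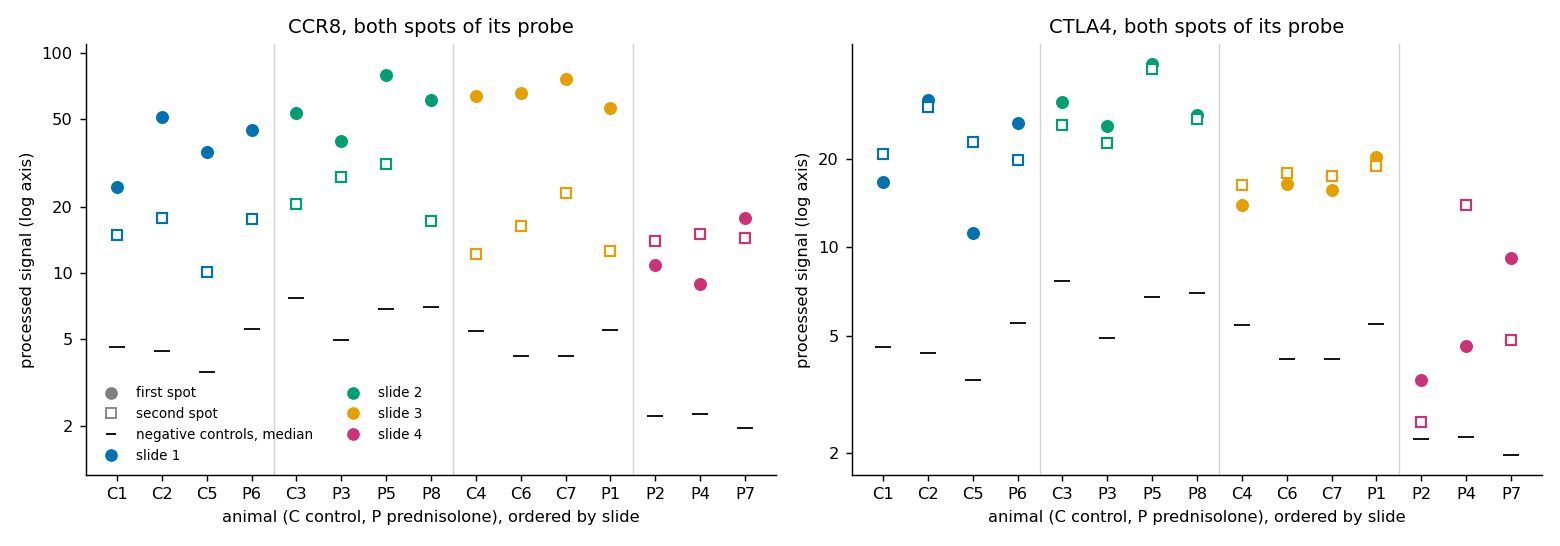
Processed signal (log axis) of both spots of the CCR8 and CTLA4 probes in every cow, ordered and coloured by slide, with the median of the array's negative controls. On slides 1 to 3 the first CCR8 spot lies at 24.6 to 79.8 and the second at 10.1 to 31.3, and on slide 4 both lie at 8.87 to 17.7. The CTLA4 spots lie at 2.55 to 13.9 on slide 4.

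Single cows stood high or low in several of the genes at once. Prednisolone animal 5 had the highest level of all 15 in FOXP3, ICOS and CCR4, and it was among the 3 highest in 7 of the 8 genes measured, IKZF2 included. It also had the highest mean of the B cell, dendritic cell and thyroid markers of all 15 cows, and the part of these cells in its levels was not tested. Control 4 had the lowest level in 4 genes, IL2RA, IKZF2, ICOS and TNFRSF9, and was among the 3 lowest in 6 of the 8. Prednisolone animal 6 was among the 3 highest in 5 of the 8, and prednisolone animal 4 among the 3 lowest in 4. These are counts over genes of the same arrays, which are not independent. The same counts were not made over all probes, so they cannot be told from a trait of the whole array.

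The levels of the tested genes were set against each other over the cows, in 6 pairs. IL2RA and CCR4 had the highest r, with a Pearson r of 0.61 and a Spearman rho of 0.53 over 15 cows (permutation test, two-sided p = 0.0157 and 0.0441, adjusted over 6 pairs 0.094 and 0.232). Without control 4 and prednisolone animal 1, the cows farthest from the median of IL2RA, r was 0.37 (adjusted permutation p = 0.392). Leaving them out also narrows the range of IL2RA, so this does not tell whether the relation rested on them. Without slide 4 r was 0.75 (adjusted permutation p = 0.0372), and 0.26 when the same cows were left out there as well. With the slide means removed r was 0.38 (adjusted permutation p = 0.506). IL2RA with TNFRSF9 had an r of 0.23, and TNFRSF9 with CCR4 of 0.15, neither past the threshold. For CCR8 the arrays of slide 4 formed a cluster of their own, so its r is given over the other 12 cows: 0.25 with IL2RA, 0.074 with TNFRSF9 and 0.21 with CCR4, all with adjusted permutation p above the threshold.

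Among the 3 genes for which likeness was to be looked up, FOXP3, IL2RA and CTLA4, IL2RA alone passed the filter. Over 15 arrays with slide means removed, the highest Pearson r with IL2RA among 11750 genes belonged to ATXN1, the ataxin 1 gene (0.88), MTNR1B, a melatonin receptor gene (0.87), and SNUPN, which encodes a nuclear import adaptor (0.86). Without removing the slide means these were 0.23, 0.82 and 0.68. They are given as a description, since the genes were chosen as the highest of many.

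Genes around these members were read from 4 lists: the ligands of their receptors, the interleukin 2 signal, the partners and regulators of FOXP3, and genes by which regulatory T cells act or are recognised. No gene of any list passed the test (limma, adjusted p under 0.05 over all tested probes).

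Of the 10 ligands, 5 were measured above the filter: CD80 and CD86, which CTLA4 binds, TNFSF4, the ligand of TNFRSF4, and CCL17 and CCL22, which CCR4 binds. All 5 had a negative difference, with a median of -0.17. Fitted with slide as a block this median was -0.028, and 0.027 when slide 4 was left out. CD80 had a level of -4.98 in controls and -6.25 in treated cows, a difference of -1.27 ± 0.56 SE (limma adjusted p = 0.693), and of -0.20 without slide 4. It was above background in 7 of 7 controls and 5 of 8 treated cows, so the treated mean takes in arrays not above background. TNFSF4 had a difference of -0.41 ± 0.21 SE (limma adjusted p = 0.707), and of -0.13 without slide 4.

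Of 8 genes of the interleukin 2 signal, 7 were measured, 4 with a positive and 3 with a negative difference, at a median of 0.0074. SOCS1, an inhibitor that the signal induces, had a difference of -0.16 ± 0.085 SE (limma adjusted p = 0.735), and of -0.053 without slide 4. STAT5B, a transcription factor that carries the signal to the FOXP3 gene, had one of 0.24 ± 0.15 SE (limma adjusted p = 0.775), and of 0.32 without slide 4. IL2RG, the chain IL2RA is joined with, had levels of 1.06 in both groups.

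Of 22 partners and regulators of FOXP3, 17 were measured. IRF4, a factor that FOXP3 works with in effector regulatory T cells, was above background in 1 of 7 controls and 6 of 8 treated cows. It passed the filter through the treated group, so it is left out of the count, and its mean levels of -6.41 and -5.94 are a description. Of the other 16, 11 had a positive and 5 a negative difference, at a median of 0.038. RUNX3, a DNA-binding partner of FOXP3, had a difference of -0.66 ± 0.41 SE over all cows and of 0.13 without slide 4 (limma adjusted p = 0.768 over all cows).

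Of 23 suppressor effector and surface genes, 19 were measured, 9 with a positive and 10 with a negative difference, at a median of -0.020. TGFBR1, a receptor chain for transforming growth factor beta, which induces FOXP3, had a difference of 0.36 ± 0.17 SE (limma adjusted p = 0.701) and of 0.069 without slide 4. TNFRSF1B, a tumour necrosis factor receptor of regulatory T cells, had one of 0.12 ± 0.077 SE (limma adjusted p = 0.768), and of 0.14 without slide 4. The suppressive cytokine gene IL10 had levels of -2.93 and -3.05, and TGFB1 of -3.45 and -3.42, in controls and treated cows.

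**Figure D5:**
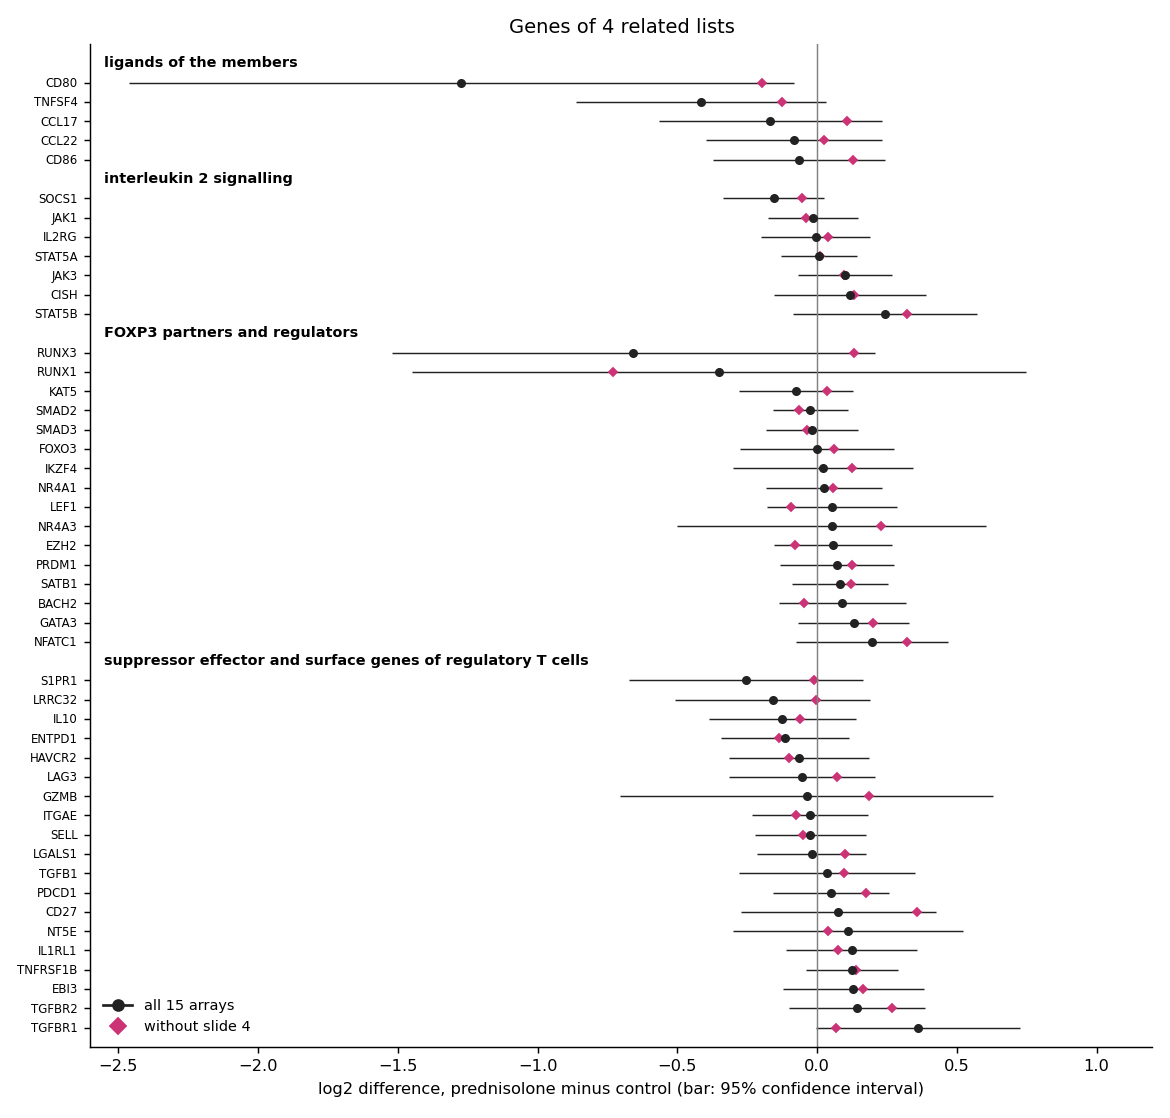
Log2 difference, prednisolone minus control, of the measured genes of 4 related lists (circles, with 95% confidence intervals from limma over 15 arrays), and the same difference without slide 4 (diamonds). No gene passed the test, IRF4 is left out, and CD80 moves from -1.27 to -0.20 and RUNX3 from -0.66 to 0.13 without slide 4.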

How the data were processed

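Each array held RNA of 1 cow's thymus, labelled with 1 dye, per the labels. The scanner files hold spot intensity values as deposited. Feature Extraction 9.5.1.1 had subtracted background and removed a trend across the array, per the file headers, and the signals are not on a common scale between arrays. A second file holds linear intensity values deposited by the authors, whose scaling is not given in the sources used here. The submitters' processing notes name R 2.11.1. No genome build is named in the sources used here, so no positions are given.

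The log2 signal was centred on each array's 75th percentile, spots marked as outliers were left out and the spots of a probe were averaged, with no pseudocount. The 16067 probes marked as well above background on 7 or more of the 15 arrays were fitted with limma 3.58.1 in R 4.3.3. A probe was called at an adjusted p under 0.05 (Benjamini-Hochberg, over all of these probes). The fit was tested on simulated data. Slides were compared with limma's F test with treatment in the model, and pairs of genes with 100000 permutations. Groups follow the treatment label, and numbers within a group were given in sample order and pair nothing. The members, lists and named genes were chosen with earlier results of these data known. Every member was to be named with its values. From each list the 2 genes with the smallest p were to be named where none passed, and IL2RG, IL10 and TGFB1 were added after their values were seen. Alternatives covered scaling, background correction, the filters, slide, weights, a CD3 covariate and each cow left out. 4 kinds of alternative were added after seeing the data: fits that take in slide and use no filter, fits of single spots, the percentile within the array, and normexp after 12 spots with a local background over 200 had been dropped.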

Additional observations from a re-analysis of the deposited data

Results flagged for a closer look

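The level of IL2RA in control 4 was -1.70, far below the other 6 controls, which lay between -1.15 and -0.88. The gap to the nearest of them took up 0.672 of the group's range, against a limit of 0.568 for 7 samples. Without control 4 the difference of IL2RA between groups was -0.036 instead of 0.064, and neither passed the test.

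The level of ICOS in prednisolone animal 5 was -4.83, far above the other 7 treated cows, which lay between -6.40 and -5.75. The gap was 0.587 of the range, against a limit of 0.526 for 8 samples. Both spots of the probe were at their brightest in this animal, with signals of 99.2 and 39.8. Without it the difference of ICOS was 0.081 instead of 0.24. 16 groups were examined in this way, 8 genes in both groups, and chance marks about 5% of groups.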

How the results depend on the processing

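None of the 4 tested genes was called under any alternative (limma adjusted p from 0.236 to 0.998 over them and IKZF2). Over all probes 0 were called, except 1 after quantile normalization, 1 with slide as a block and no filter, and 0 to 3 when 1 cow was left out, the 3 without prednisolone animal 1. The median difference of the 4 genes was -0.33 within slide 3. The sign turned to 0.058 for CCR8 with slide as a block, with or without the filter, and by its spots to 0.055 and 0.061 with that block and to 0.072 for the second without slide 4. For CCR4 it turned to 0.061 without slide 4, with or without the filter, and to 0.13 by its second spot without that slide. For IL2RA it turned to -0.060 with slide as a block, with or without the filter (-0.035 and -0.086 by its spots), and to -0.011 as a random block. For IKZF2 it turned to -0.72 and -0.18 with normexp before and after leaving out spots of high local background. With slide as a block IKZF2 turned to -0.066, with or without the filter, and to -0.15 by its first spot with that block. Without 1 cow IL2RA ran from -0.036 to 0.14 and IKZF2 from -0.017 to 0.24, both lowest without control 4. In the same way TNFRSF9 ran from 0.16 (without control 4) to 0.38 (control 5), CCR4 from -0.21 (prednisolone animal 5) to -0.048 (animal 4), CCR8 from -0.64 to -0.39, ICOS from 0.081 (animal 5) to 0.36 (control 5) and CTLA4 from -0.87 to -0.37 (animal 2). Within single slides IL2RA, CCR4, CCR8, CTLA4 and IKZF2 did not keep 1 sign. The cause of these turns was not tested. Between slides 8538 probes differed without the filter, 3764 after quantile normalization and 6727 after median centring. CCR8 was called between slides in each of these settings, and IKZF2 in each but quantile normalization. Without slide 4, 1 pair of genes passed the permutation test, and r turned to 0.074 for TNFRSF9 with CCR8. Without the 2 farthest cows r turned to -0.16 for IL2RA with TNFRSF9 and to -0.0054 for TNFRSF9 with CCR4. No paired analysis was possible because the labels give no numbers shared between groups. FOXP3, CTLA4 and ICOS lie close to background, where the scanner signal limits what can be read.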
